A study of Rattus norvegicus with 14 samples.

Results

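Perilipins and CIDE proteins coat lipid droplets, the organelles in which cells store triglyceride. The 8 rat genes described here were taken by name: the 5 perilipins Plin1, Plin2, Plin3, Plin4 and Plin5, and the 3 CIDE genes Cidea, Cideb and Cidec. Of these 8 genes, 6 were matched to a row of the count table, which holds 16816 gene symbols. No row was matched for Plin3 or Plin4 under these symbols or their RefSeq synonyms, and both are not analysed here.

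RNA-seq was performed on PCCL3 cells, a line of rat thyroid cells grown with thyrotropin, insulin and hydrocortisone. PPFP cells are PCCL3 cells that stably express the human PAX8-PPARG fusion protein (PPFP) with a Myc tag, and EV cells are PCCL3 cells that carry the empty vector. Pioglitazone, a ligand of PPARG, was added to each line from a stock in DMSO at 1 μM for 16 hours, and the cultures without it received vehicle. This gave 4 groups of 3 libraries, from 3 independent experiments: EV cells without pioglitazone, EV cells with pioglitazone, PPFP cells without pioglitazone and PPFP cells with pioglitazone. Whether each stable line was a single clone or a pool of clones is not given in the sources used here, so that a difference between PPFP cells and EV cells cannot be told apart from a difference between these lines as such.

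A lipid droplet is a core of neutral lipid under a layer of phospholipid and proteins. Perilipins sit on this layer and set how far lipases reach the stored fat. Plin1 is the main perilipin of adipocytes, where it holds back lipolysis until hormones lead to its phosphorylation. Plin2 coats droplets in most cell types, and Plin5 is known from tissues that oxidize fat, where it links droplets to mitochondria. The CIDE proteins act where droplets touch. Cidec helps small droplets to pass their lipid to larger ones in white fat, Cidea does so in brown fat, and Cideb is best known from liver, where it takes part in lipoprotein assembly. In adipocytes, several genes of these families are known targets of PPARG, which binds DNA with RXR at a direct repeat of the hexamer AGGTCA.

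Since 4 of these genes differed together between the groups, as described below, the sequences around their start sites are shown. Each runs 5′ to 3′ on the strand of the gene, from 250 bases before to 50 bases after the start site, in the RefSeq annotation of GRCr8. Capitals mark the 50 bases from the start site on and, in Plin5, the hexamer AGGTCA. Plin1 lies at chr1:143086099-143086398, Plin2 (the first of its 2 start sites) at chr5:106228969-106229268, Plin5 at chr9:1033235-1033534 and Cidec at chr4:148137066-148137365, all on the minus strand.
Plin1: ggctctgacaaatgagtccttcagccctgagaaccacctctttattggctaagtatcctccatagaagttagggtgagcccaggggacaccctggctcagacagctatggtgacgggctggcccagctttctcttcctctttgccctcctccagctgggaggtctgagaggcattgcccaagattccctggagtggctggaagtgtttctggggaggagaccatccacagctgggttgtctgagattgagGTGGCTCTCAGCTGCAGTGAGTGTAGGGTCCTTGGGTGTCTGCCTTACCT
Plin2: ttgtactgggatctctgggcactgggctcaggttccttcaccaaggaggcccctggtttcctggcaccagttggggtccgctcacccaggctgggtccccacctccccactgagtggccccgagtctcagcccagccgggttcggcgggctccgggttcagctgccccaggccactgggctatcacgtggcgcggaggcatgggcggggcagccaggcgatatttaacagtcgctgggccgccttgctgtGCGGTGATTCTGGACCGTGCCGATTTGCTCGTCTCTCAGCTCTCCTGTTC
Plin5: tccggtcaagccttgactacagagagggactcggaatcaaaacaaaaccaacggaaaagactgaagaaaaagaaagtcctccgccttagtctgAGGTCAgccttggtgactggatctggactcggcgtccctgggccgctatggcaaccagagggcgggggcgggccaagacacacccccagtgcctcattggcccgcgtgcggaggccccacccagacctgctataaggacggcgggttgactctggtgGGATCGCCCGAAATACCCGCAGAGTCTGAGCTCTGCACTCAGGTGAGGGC
Cidec: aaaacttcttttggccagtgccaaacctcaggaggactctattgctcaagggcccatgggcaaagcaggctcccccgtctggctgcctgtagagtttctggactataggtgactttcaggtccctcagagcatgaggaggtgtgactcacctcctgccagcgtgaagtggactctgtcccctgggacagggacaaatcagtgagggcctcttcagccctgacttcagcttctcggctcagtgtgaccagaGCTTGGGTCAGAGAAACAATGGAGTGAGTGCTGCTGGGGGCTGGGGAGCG

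The hexamer AGGTCA, searched on both strands, was present in 16.2% of all 33469 promoters of this length (5415 promoters). Among the promoters of the 8 genes, all of which were matched in RefSeq (13 promoters in all), it was found in that of Plin5 alone, on the plus strand of the window at bases 94 to 99. The direct repeat AGGNCANAGGNCA, which holds the hexamer where the N at the fourth base of each repeat is T, was present in 0.415% of all promoters (139) and in none of the 8 genes. A missing match says only that these letters are not in this window. In GRCr8, Plin5 lies next to Plin4, Plin1 between Kif7 and Pex11a, Plin2 between Haus6 and Dennd4c, and Cidec between Rpusd3 and Jagn1.

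Reads counted on genes were between 23724703 and 35240176 per library. The check of the construct was that of Pparg, whose counts do not separate the rat gene from PPFP: it was at 1.60 ± 0.348 CPM (counts scaled to library size, SD, n = 3) in EV cells without pioglitazone, whereas PPFP cells without pioglitazone had 54.1 ± 6.82 CPM. The thyroid label held, with 10 or 11 of 11 thyroid follicular cell markers at 1 CPM or more in each group. Replicates 2 and 3 of PPFP cells with pioglitazone were unusually close, with a chi-square per degree of freedom of 1.70 over genes, where the next closest pair of replicates gave 17.8 and the most distant 113. They differed by more than counting noise and were kept as separate samples, and the calls of the coat genes and the counts of the gene lists that rest on them are also given with both counted as 1 sample. The p-values measure the spread between the libraries of a group. It would be understated for PPFP cells with pioglitazone if replicates 2 and 3 were not separate cultures. In bulk RNA, more cells that express a gene and more RNA per cell cannot be told apart.

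**Figure D1:**
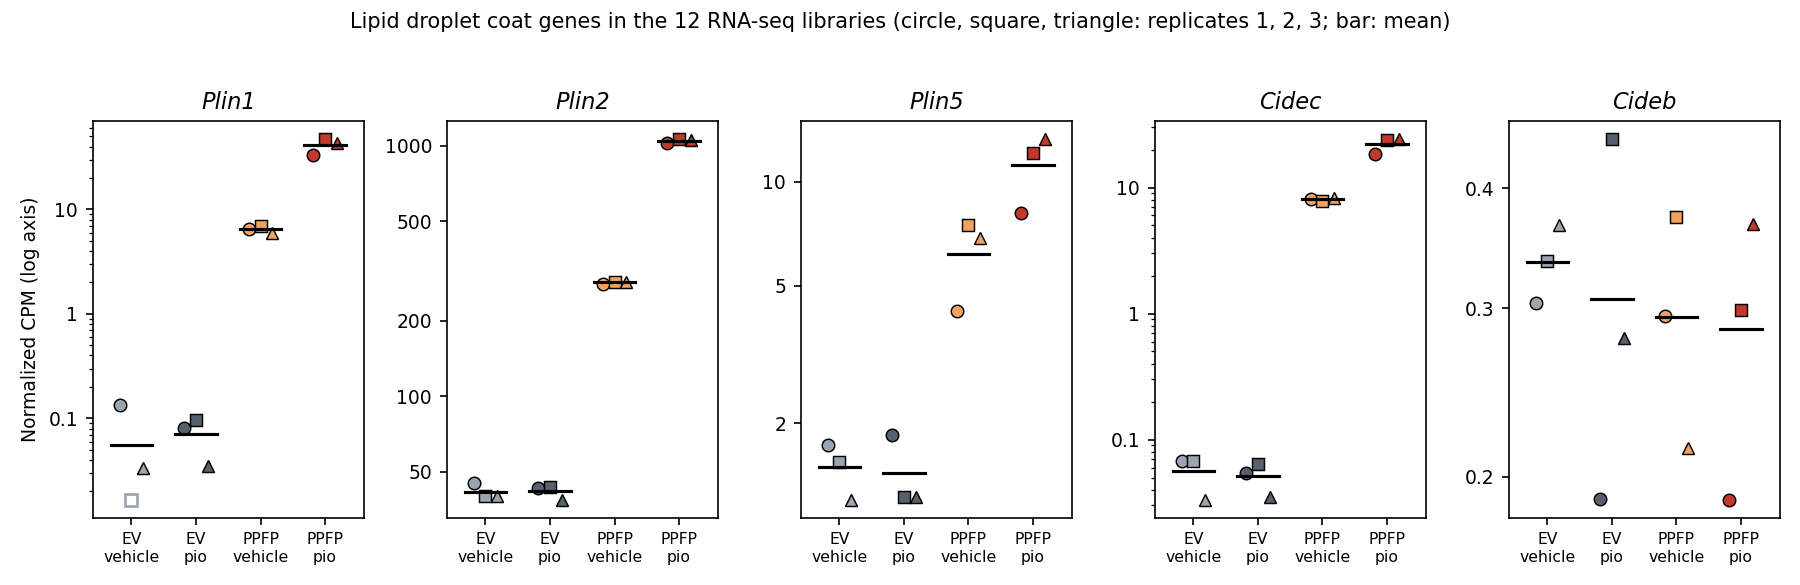
Normalized CPM (log axis) of Plin1, Plin2, Plin5, Cidec and Cideb in the 12 libraries, by group (pio, pioglitazone). Circles, squares and triangles are replicates 1, 2 and 3, bars are group means, and the open square of Plin1 stands for a library with 0 counts, drawn at the bottom since a log axis has no 0. In Plin1, Plin2, Plin5 and Cidec every PPFP library lies above every EV library, whereas the groups of Cideb overlap.

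Without pioglitazone, 4 of the 6 genes could be tested between the cell lines, and all 4 were higher in PPFP cells: Plin1, Plin2, Plin5 and Cidec. Each had a fold change above 2 and an adjusted p under 0.05, as had 7.27% of the 10264 genes tested in this direction. Plin1 and Cidec passed the filter on low counts only through the PPFP libraries and so could come out only as higher. Plin2 and Plin5 had counts in both lines, and the filter for at least 10 counts in every library left these 2 members, both higher. The libraries of the 2 cell lines did not overlap for any of these 4 genes, as for 27.6% of all genes tested in this direction. Cidea and Cideb had too few counts to be tested.

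Plin1 was nearly undetected in EV cells. Its counts were 4, 0 and 1 in the 3 EV libraries without pioglitazone and 3, 3 and 1 in the 3 with pioglitazone, where 3 counts is taken as the floor of detection. PPFP cells without pioglitazone had 175, 187 and 138 counts of Plin1, which is 6.44, 6.98 and 5.91 CPM. All 3 libraries are therefore far above every EV library. With pioglitazone, Plin1 in PPFP cells was 32.9, 46.9 and 43.0 CPM, the highest of the 4 groups in every library. Pooled over the libraries without pioglitazone, the ratio of PPFP cells to EV cells was 116 (95% exact interval from counting alone 49.2 to 358, 500 against 5 counts). In edgeR's quasi-likelihood test the log2 fold change of Plin1 was 6.74 (SE 0.47, adjusted p = 3.5e-05). With so few EV counts this SE is too small as a measure of precision, and DESeq2 gave 6.85 with an SE of 0.68. The size of the fold change depends on 1 library: EV cells without pioglitazone replicate 1 holds 4 of the 5 counts, and without it the log2 fold change was 8.24. The adjusted p was between 3.9e-59 and 3.0e-04 over the alternatives in which Plin1 could be tested, which leaves out the filter for at least 10 counts in every library.

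Plin2 was readily detected in every group, with at least 1109 counts in each library. EV cells without pioglitazone had 45.0, 40.3 and 40.0 CPM, and EV cells with pioglitazone had 43.1, 43.5 and 38.7 CPM. In PPFP cells the levels were 281, 287 and 286 CPM without pioglitazone and 1028, 1060.1 and 1051 CPM with pioglitazone. The replicates of PPFP cells thus lay within a narrow band in both groups, and the 2 PPFP groups overlapped neither each other nor the EV groups, which overlapped each other. Without pioglitazone, Plin2 was 6.83-fold higher in PPFP cells (log2 fold change 2.77, SE 0.084, adjusted p = 2.4e-06).

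Plin5 was detected at a low level in EV cells, at 1.72, 1.54 and 1.20 CPM without pioglitazone and 1.84, 1.22 and 1.22 CPM with pioglitazone. In PPFP cells without pioglitazone it was 4.23, 7.46 and 6.85 CPM. Replicate 1 was the lowest of these and still exceeded every EV library. The fold change was 4.14 (log2 fold change 2.05, SE 0.27, adjusted p = 7.3e-04). In PPFP cells with pioglitazone Plin5 was 8.10, 12.1 and 13.3 CPM, and replicate 1 was again the lowest.

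Cidec behaved much like Plin1 in EV cells, with 2, 2 and 1 counts without pioglitazone and the same counts with it, all at the floor. In PPFP cells without pioglitazone it had 220, 211 and 192 counts, or 8.09, 7.87 and 8.22 CPM, a spread of 0.176 CPM (SD, n = 3). The pooled ratio of PPFP cells to EV cells was 144 (95% exact interval from counting alone 61.4 to 445, 623 against 5 counts), with an adjusted p of 3.6e-06 in edgeR's quasi-likelihood test. With pioglitazone, Cidec in PPFP cells was 18.4, 23.6 and 24.1 CPM. Every library with pioglitazone was above every library without it.

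The other CIDE genes did not share this pattern. Cideb had between 5 and 14 counts in each of the 12 libraries, and its mean without pioglitazone was 0.335 ± 0.0313 CPM in the EV libraries against 0.294 ± 0.0795 CPM in the PPFP libraries (SD, n = 3). All 4 groups of Cideb overlapped. At this depth no difference was detectable, and since Cideb overlaps Nop9 and the library kit does not mark the strand, its counts are uncertain. Cidea had 0 counts in 9 libraries and 1 count in each of the 3 libraries of PPFP cells with pioglitazone. These counts are under the floor of 3, and no fold change is given.

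With pioglitazone in both lines, the same 4 genes were higher in PPFP cells. Each again had a fold change above 2 and an adjusted p under 0.05, as had 9.30% of the 10291 genes tested in this direction, and Plin1 and Cidec again passed the filter only through the PPFP libraries. The difference was 25.3-fold for Plin2 (log2 fold change 4.66, SE 0.090, adjusted p = 4.0e-07) and 7.83-fold for Plin5 (log2 fold change 2.97, SE 0.27, adjusted p = 1.2e-04). For Plin1 the pooled ratio was 567 (95% exact interval from counting alone 275 to 1411, 3415 against 7 counts), and for Cidec it was 428 (183 to 1319, 1841 against 5 counts). The adjusted p in edgeR's quasi-likelihood test was 2.1e-06 for Plin1 and 1.9e-06 for Cidec. The 4 genes kept an adjusted p under 0.05 with replicates 2 and 3 of the PPFP cells counted as 1 sample. Under scaling by library size alone the median of all genes moved to a log2 fold change of -0.12 here, which is small beside the differences of these 4 genes.

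Pioglitazone raised 3 of the 4 genes tested in PPFP cells, namely Plin1, Plin2 and Cidec, with fold changes above 2 and an adjusted p under 0.05. Of all 10064 genes tested, 1.11% rose by these criteria. Plin1 rose 6.40-fold (log2 fold change 2.68, SE 0.16, adjusted p = 4.1e-04), Plin2 rose 3.70-fold (1.89, SE 0.044, adjusted p = 1.8e-05) and Cidec rose 2.76-fold (1.46, SE 0.13, adjusted p = 0.0013). All 3 stayed under 0.05 with replicates 2 and 3 of PPFP cells with pioglitazone counted as 1 sample, with log2 fold changes of 2.60 (adjusted p = 0.0051), 1.88 (adjusted p = 7.0e-04) and 1.40 (adjusted p = 0.0098). The group means went from 6.44 ± 0.534 to 40.9 ± 7.20 CPM (SD, n = 3) for Plin1, from 285 ± 3.05 to 1046 ± 16.5 CPM for Plin2 and from 8.06 ± 0.176 to 22.0 ± 3.19 CPM for Cidec.

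Plin5 was 1.82-fold higher with pioglitazone, from 6.18 ± 1.72 to 11.2 ± 2.71 CPM (SD, n = 3), and did not pass the test (log2 fold change 0.87, SE 0.27, adjusted p = 0.089). Its libraries did not overlap between the groups, which held for 16.4% of all genes tested in this direction. The call turned on the test and on how the replicates were treated. With the replicate number as a block, a fit under which 27.7% of genes were higher, the same log2 fold change had an SE of 0.093 and an adjusted p of 3.5e-08. DESeq2 gave an adjusted p of 0.020 and edgeR's exact test 0.0088. Without replicate 1 of PPFP cells with pioglitazone it was 0.047, and with replicates 2 and 3 counted as 1 sample it was 0.24. Within PPFP cells, replicate 1 was the lowest library of Plin5 in both groups. Over all genes, replicates 2 and 3 of PPFP cells correlated across numbers as well (0.427 and 0.262, against 0.346 and 0.292 for the same numbers), so that the numbers set replicate 1 apart more than they pair 2 with 2 and 3 with 3.

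Within each replicate number of PPFP cells, the level with pioglitazone divided by the level without it was 5.12, 6.72 and 7.27 for Plin1 in replicates 1, 2 and 3. For Plin2 it was 3.65, 3.70 and 3.67. For Cidec it was 2.27, 3.00 and 2.94, and for Plin5 1.92, 1.62 and 1.93. Each of the 4 genes was higher in 3 of 3 pairs, and the ranges of the 4 genes did not overlap: the ratio was highest for Plin1, then Plin2, Cidec and Plin5. The differences between the genes in this ratio were not tested. For Cideb the ratios were 0.643, 0.799 and 1.71, on both sides of 1. Cidec and Plin1 both had their lowest ratio in replicate 1.

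**Figure D2:**
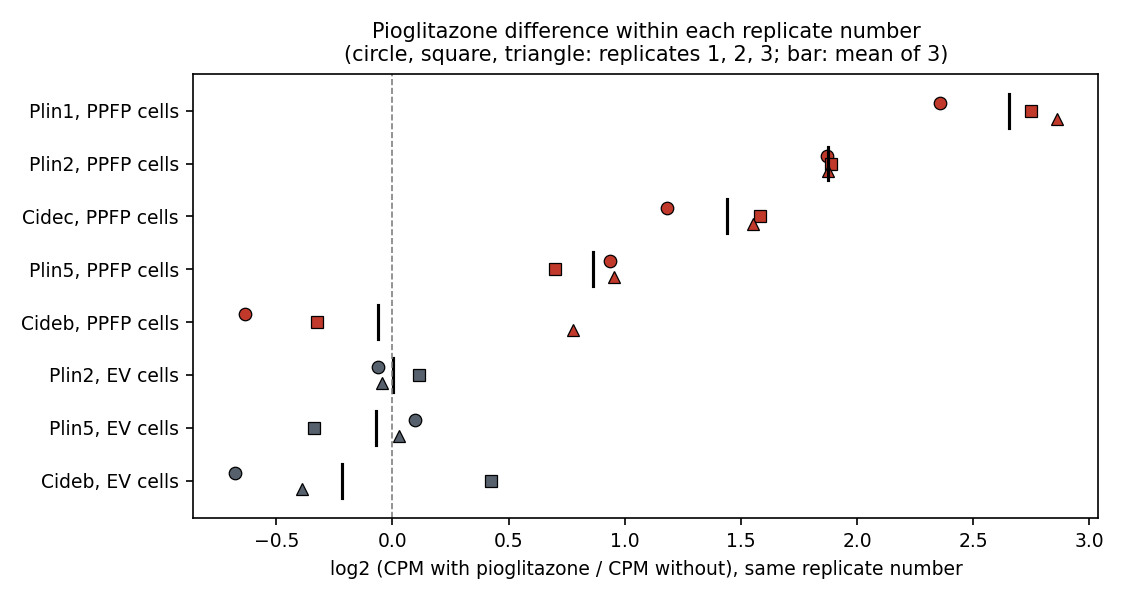
Difference in log2 CPM between the library with and the library without pioglitazone of the same replicate number, for the genes with counts above the floor in that cell line. Circles, squares and triangles are replicates 1, 2 and 3, bars are the means of the 3, and the dashed line marks no difference. The points of Plin1, Plin2, Cidec and Plin5 in PPFP cells all lie above 0, and those of Plin2, Plin5 and Cideb in EV cells lie on both sides of it.

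None of the 3 genes that could be tested in EV cells (Plin2, Plin5 and Cideb) passed the test of pioglitazone, and 0% of the 10146 genes tested were called in either direction. With edgeR's quasi-likelihood test 16 genes had an unadjusted p under 0.05, none of them a member. That is far fewer than would be found without any true change. This fit has no term for the replicate, and a gene that did not pass is not shown to be unchanged. DESeq2 and edgeR's exact test also called 0 genes (7 and 8 at an unadjusted p under 0.05), and a fit with a block for the replicate number called 1 (0.00986%), with 605 genes at an unadjusted p under 0.05. The log2 fold change was -5.3e-04 for Plin2 (SE 0.082), -0.052 for Plin5 (SE 0.25) and -0.15 for Cideb (SE 0.39). The ratios within replicate numbers were 0.958, 1.08 and 0.969 for Plin2 and 1.07, 0.791 and 1.02 for Plin5. Plin2 is the member for which these data are most precise, since its SE in EV cells is the smallest of the 3. Plin1 and Cidec were at or near the floor in all 6 EV libraries and were not tested there.

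Whether the response to pioglitazone differed between PPFP and EV cells was tested as an interaction over all 12 libraries. Plin2 passed this test, with a response that was larger in PPFP cells by 1.88 on the log2 scale (SE 0.098, adjusted p = 8.2e-06), where 1.38% of the 10482 genes tested passed in this direction. With replicates 2 and 3 of PPFP cells with pioglitazone counted as 1 sample it was 1.87 (adjusted p = 9.7e-05). Plin5 had a difference of 0.90 (SE 0.39, adjusted p = 0.34), and with the replicate number as a block within each cell line 0.91 (SE 0.20, adjusted p = 0.0028), a fit in which 17.2% of genes passed in this direction. With replicates 2 and 3 counted as 1 sample it was 0.80 (adjusted p = 0.55). The differences of Plin1 (2.32, SE 0.96, adjusted p = 0.30) and Cidec (1.55, SE 0.56, adjusted p = 0.51) did not pass. With the block the SE was 1.11 for Plin1 and 0.92 for Cidec. For both, the EV side of the difference rests on 12 counts of Plin1 and 10 of Cidec in 6 libraries, so that their large increase in PPFP cells is not shown to differ from that of EV cells on this scale. With each library left out, the difference of Plin1 was 0.80 to 2.87. For Cideb the difference was 0.10 (SE 0.55, adjusted p = 0.98).

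The order of the groups was the same for Plin1, Plin2, Plin5 and Cidec: PPFP cells with pioglitazone were highest, PPFP cells without pioglitazone followed, and the 2 EV groups, which did not differ beyond their spread, were lowest. Across the 12 libraries, the log2 CPM values of these 4 genes correlated with each other at a Pearson r of 0.966 to 0.981. The 12 points fall into groups that set this value, and many genes shared it: 503 of 10477 genes had an r above 0.95 with Plin2, 758 with Cidec and 495 with Plin1. The 3 genes most like Plin2 were Gpd1, the glycerol phosphate dehydrogenase of the cytosol (r 0.999), Pex13, a peroxisomal import protein (r 0.998), and Sh2d4a (r 0.998). The mean level of Gpd1 without pioglitazone was 183 CPM in the EV libraries and 940 CPM in the PPFP libraries, and PPFP cells with pioglitazone had 3125 CPM. Aplp2, Mkln1 and Fam107b were the most like Cidec (r 0.999, 0.998 and 0.998), and Csrp2, Crip2 and Aifm2 the most like Plin1 (r 0.993, 0.991 and 0.989).

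Other proteins of the lipid droplet differed in both directions. Of 32 such genes listed, 28 were in the table and 24 were tested between the cell lines without pioglitazone: 9 were higher at an adjusted p under 0.05 (37.5%, against 22.0% of all genes), 4 were lower (16.7%, against 23.1%) and 11 did not pass. Their median log2 fold change was 0.15, and that of all genes was 0.0016. With pioglitazone in both lines, 8 of 26 were higher (30.8%, against 26.3% of all genes) and 3 lower (11.5%, against 26.4%), or 7 and 3 with replicates 2 and 3 of the PPFP cells counted as 1 sample (26.9% and 11.5%, against 19.7% and 22.5%). The higher ones include Cav1 and Mettl7b, which passed the filter only through the PPFP libraries. G0s2, an inhibitor of the lipase Pnpla2, went from 64.0 ± 10.3 to 220 ± 34.6 CPM (log2 fold change 1.78, SE 0.16, adjusted p = 1.1e-04). Ptrf, the caveolar coat protein cavin, was higher in the same comparison by a log2 fold change of 1.13 (SE 0.13, adjusted p = 3.7e-04). Cav1, caveolin of the plasma membrane and droplets, had 0 counts in all 3 EV libraries without pioglitazone. PPFP cells without pioglitazone had 1.25 ± 0.156 CPM, at least 12.3-fold higher than the floor of 3 counts per library. Cav1 passed the filter only through the PPFP libraries and could come out only as higher, so that its place among the 9 says nothing of the list. Acsl3, an acyl-CoA synthetase of growing droplets, fell from 128 ± 15.1 to 58.0 ± 5.32 CPM (log2 fold change -1.14, SE 0.12, adjusted p = 2.2e-04).

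In PPFP cells with versus without pioglitazone, 4 of 25 other droplet proteins tested were higher (16%, against 7.63% of all genes) and 2 were lower (8%, against 7.13%). With the replicate number as a block these counts were 10 higher (40%, against 27.7%) and 7 lower (28%, against 23.9%). With replicates 2 and 3 of PPFP cells with pioglitazone counted as 1 sample they were 2 higher (8%, against 3.68%), which were Fitm2 and Hsd17b7, and 0 lower (against 3.30%). Those that rose with all 6 libraries and no block were Fitm2, which takes part in droplet formation at the endoplasmic reticulum (log2 fold change 0.92, adjusted p = 4.4e-04), Hsd17b7 (0.78, adjusted p = 0.0021), G0s2 (0.82, adjusted p = 0.042) and Ptrf (0.43, adjusted p = 0.032). Cav1 fell from 1.25 to 0.511 CPM (log2 fold change -1.28, SE 0.29, adjusted p = 0.030), against its direction between the cell lines. Its counts were low, 30 to 33 per library without and 11 to 19 with pioglitazone. Spg20 fell by 0.39 on the log2 scale (adjusted p = 0.042). None of the 4 that rose reached a fold change of 2. Mettl7b had a larger difference that did not pass (log2 fold change 1.65, SE 0.43, adjusted p = 0.052) and was called with the block (adjusted p = 0.0027), but with 3 to 7 counts without and 11 to 23 with pioglitazone it passed the filter only through the libraries where it is high. In EV cells 0 of 24 passed. In the interaction test 1 of 26 did (Fitm2, 0.79, adjusted p = 0.0056), which is 3.85% against 1.38% of all genes, and with the block 7 had a larger response in PPFP cells (26.9%, against 17.2%) and 3 a smaller one (11.5%, against 17.1%). With both replicates counted as 1 sample Fitm2 was again called (adjusted p = 0.018).

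Enzymes that make triglyceride and the lipases that break it down formed a list of 21 genes, of which 20 were in the table. Of 17 tested in PPFP cells with versus without pioglitazone, 8 were higher at an adjusted p under 0.05 (47.1%, against 7.63% of all genes), none was lower and 9 did not pass, with a median log2 fold change of 0.22 against 0.012 for all genes. With the block, 12 were higher (70.6%, against 27.7%) and 3 were lower (17.6%, against 23.9%), the latter being Lpin1, Lpin2 and Lpin3, phosphatidate phosphatases of triglyceride synthesis. With replicates 2 and 3 of PPFP cells with pioglitazone counted as 1 sample, 7 were higher (41.2%, against 3.68%) and none lower. Mgll, the monoacylglycerol lipase, went from 104 ± 2.58 to 263 ± 18.0 CPM (log2 fold change 1.35, SE 0.071, adjusted p = 3.6e-04). Agpat9, a glycerol phosphate acyltransferase, went from 21.1 to 48.4 CPM (1.21, SE 0.13, adjusted p = 0.0027), and Agpat3, an acyltransferase of the next step, went from 135 to 270.2 CPM (1.01, SE 0.053, adjusted p = 3.6e-04). Pnpla2, the adipose triglyceride lipase (0.90, adjusted p = 0.0036), Lipe, the hormone-sensitive lipase (0.88, adjusted p = 0.0044), and Lipa, the lysosomal lipase (0.78, adjusted p = 4.1e-04), also rose. So did Dgat2, which makes triglyceride from diacylglycerol (0.54, adjusted p = 0.012, and 0.054 with both replicates counted as 1 sample), and Agpat2 (0.43, adjusted p = 0.0050). Genes of synthesis and of breakdown were thus both among those that rose.

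Between the cell lines without pioglitazone 4 of 17 genes of this list were higher (23.5%, against 22.0% of all genes), 3 were lower (17.6%, against 23.1%) and 10 did not pass. These shares are near those of all genes, and the median log2 fold change was -0.074. Dgat2 had the largest difference among the 17, from 47.8 ± 7.75 to 190 ± 12.2 CPM (SD, n = 3, log2 fold change 1.99, SE 0.13, adjusted p = 2.9e-05). With pioglitazone in both lines, 9 of 17 were higher (52.9%, against 26.3% of all genes) and 3 lower (17.6%, against 26.4%). With replicates 2 and 3 of the PPFP cells counted as 1 sample, 8 were higher (47.1%, against 19.7%) and 3 lower (17.6%, against 22.5%). In EV cells none of the 17 passed, with or without the replicate block. The interaction test gave 5 of 17 with a larger response in PPFP cells (29.4%, against 1.38% of all genes), and with the block 10 larger (58.8%, against 17.2%) and 2 smaller (11.8%, against 17.1%). With both replicates counted as 1 sample it was again 5 of 17 (29.4%, against 0.862%).

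**Figure D3:**
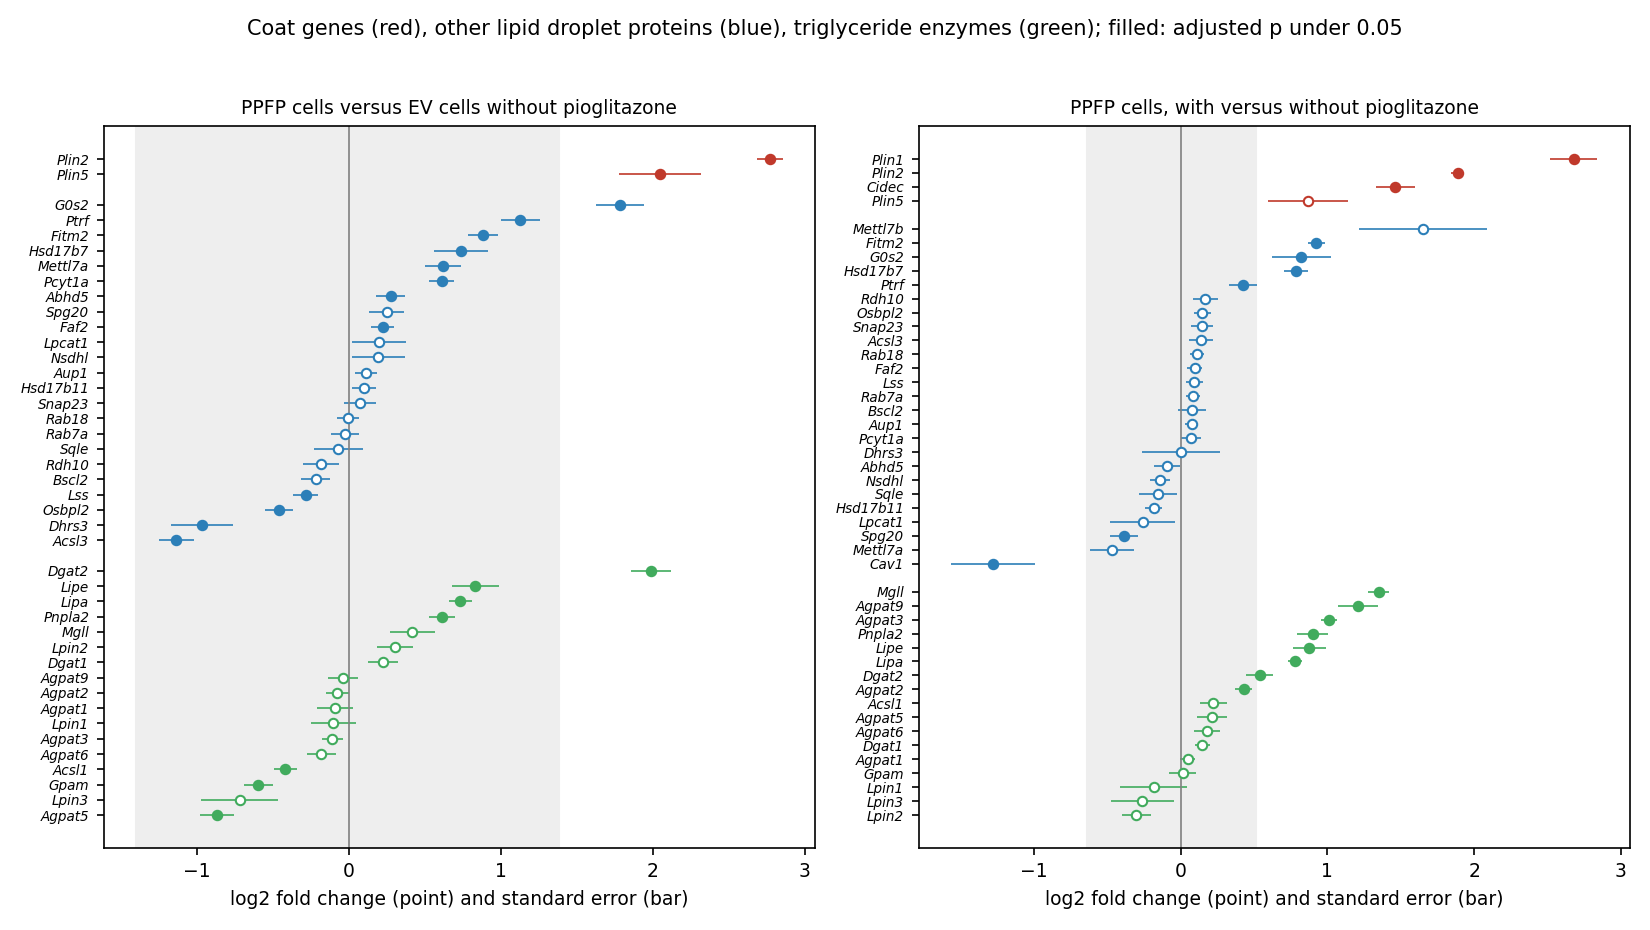
Log2 fold change (points) with its standard error (bars) of the coat genes (red), other lipid droplet proteins (blue) and triglyceride enzymes and lipases (green), between the cell lines without pioglitazone (left, PPFP versus EV) and in PPFP cells with versus without pioglitazone (right). Filled points have an adjusted p under 0.05, and grey bands span the 5th to the 95th percentile of all genes tested; Plin1, Cidec and Cav1, nearly or wholly without counts in EV cells, are left out on the left. The coat genes drawn lie to the right of the grey band in both panels, at log2 fold changes from 0.87 to 2.77.

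The summed level of the adipocyte markers followed the order of the 4 coat genes above, and in PPFP cells Cfd and Ucp1 made up most of it. Of 11 listed, 4 were at 1 CPM or more in each group, and the summed level of all 11 was 30.7 to 34.2 CPM in EV cells without pioglitazone, 28.5 to 33.9 with pioglitazone, 843 to 874 in PPFP cells without and 1305 to 1464 with pioglitazone. Among the defining markers, Lep and Retn had 0 counts in all 12 libraries, Adipoq was between 0.559 and 4.67 CPM, and Cfd between 8.56 and 932 CPM. Ucp1, the uncoupling protein of brown fat, ranged from 0 to 430.4 CPM, and Cebpa from 12.9 to 109 CPM. Fabp4 and Lpl, which adipocytes express strongly, had at most 5 counts and 1 count in any library. The ranges of single markers are over all 12 libraries and do not give their direction between groups. The summed level of the 11 thyroid markers was 10331 to 10615 CPM in PPFP cells with pioglitazone and 13994 to 14640 in PPFP cells without it, and the EV libraries spanned 10679 to 14331 without and 11384 to 14987 with pioglitazone. Of 8 macrophage markers listed, a cell type that also expresses Plin2, the defining ones were at or near 0, with at most 1 count of Ptprc, 2 of Csf1r and 0 of C1qa. The 8 summed to 0.503 to 0.633 CPM in EV cells without pioglitazone, 0.380 to 0.838 with it, 0.846 to 1.23 in PPFP cells without and 1.10 to 1.42 with pioglitazone. Cd68, a lysosomal protein, made up most of this, at 13 to 35 counts and at most 1.31 CPM. Of 6 fibroblast markers, which summed to 20.4 to 34.5 CPM, Pdgfra made up most, at 19.0 to 32.1 CPM, and Col1a1 was between 0.871 and 3.58 CPM. The part of these markers in the results was not tested.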

How the data were processed

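The authors sequenced TruSeq libraries, 50 nt paired end, aligned reads to rn4 with TopHat2 2.0.11 and counted reads per gene with HTSeq 0.6.1p1 in its intersection-strict mode. The deposited table holds these raw counts by gene symbol, without normalization or pooling; each of the 12 columns was matched to its sample by name, and 0 columns were unmatched. Total counts per library were 23724703 to 35240176.

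The tools were edgeR 4.0.16 in R 4.3.3, with DESeq2 1.42.0 as an alternative, and pandas 2.3.3 and matplotlib 3.10.9 in Python 3.11.15 for sequences and figures. The filter was filterByExpr (minimum count 10) and the scaling TMM (factors 0.925 to 1.05). Each pair of groups was fitted on its 6 libraries by the quasi-likelihood test of edgeR, adjusted by Benjamini-Hochberg over all genes tested, as was the interaction over 12 libraries. An adjusted p is that of this test where no other is named. The SE is the log2 fold change divided by the root of F, which can fall below counting error where a group has few counts. Counting intervals cover counting error only. The code was tested on simulated counts.

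The coat genes and gene lists were chosen with earlier results of these data known. Named genes are all members; from each list at most the 3 largest changes in each direction, past an adjusted p of 0.05 and a fold change of 2, between the cell lines without pioglitazone and between PPFP cells with and without it; and the 3 genes most correlated (log2 CPM, prior count 0.5) with each member differentially expressed with pioglitazone. Other genes of the lists were named after their values were seen: those with a smaller fold change that passed the test, Lpin1, Lpin2 and Lpin3, which passed in PPFP cells with versus without the drug under the replicate block only, and Mettl7b.

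Whether numbers pair libraries was read from how far deviations from group means correlated between same-numbered libraries. With versus without pioglitazone it was 0.292 to 0.628 in PPFP cells and 0.416 to 0.677 in EV cells, and the numbers were taken as pairs, since every pair was over 0.1. The pairs were used for the ratios within replicate numbers and for the replicate block. The main tests have no term for the number. In PPFP cells replicates 2 and 3 also correlated across numbers, at 0.427 and 0.262. Between the cell lines the correlation of same-numbered libraries was -0.272 to 0.250 without and -0.296 to 0.182 with pioglitazone, and the numbers were not taken as pairs.

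The alternatives were DESeq2, edgeR's exact test, RLE factors, library size alone, no filter, at least 10 counts in every library, the replicate block, all 12 libraries in one fit and each library left out. Counting replicates 2 and 3 of PPFP cells with pioglitazone as 1 sample was added after seeing the data. The ChIP-seq peak lists (2 samples) were not used, since their positions are in rn4 and the gene tables at hand are in GRCr8.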

Additional observations from a re-analysis of the deposited data

Results flagged for a closer look

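The response of Plin2 to pioglitazone differed between the cell lines. The difference in log2 fold change, PPFP cells minus EV cells, was 1.88 (SE 0.098), with an adjusted p of 8.2e-06 in edgeR's quasi-likelihood test of the interaction over 12 libraries, and between 2.7e-88 and 1.3e-04 over the alternatives. Plin2 was higher with pioglitazone in 3 of 3 pairs of PPFP libraries, with ratios of 3.65 to 3.70, and in 1 of 3 pairs of EV libraries, with ratios of 0.958 to 1.08.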

How the results depend on the processing

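Most calls did not depend on the setting. Between the cell lines, 4 members were called both without and with pioglitazone, under each alternative except the filter for at least 10 counts in every library. That filter left 2 members called in each, since Plin1 and Cidec have too few counts in EV cells to be tested. In PPFP cells with versus without pioglitazone 3 or 4 members were called, and the fourth was Plin5, whose log2 fold change was 0.87 with the replicate block (adjusted p = 3.5e-08), 0.86 in DESeq2, 0.87 in the exact test and 1.04 without PPFP cells with pioglitazone replicate 1. Its adjusted p ranged from 3.5e-08 to 0.24. In the interaction, the replicate block within each cell line called 2 members (Plin2 and Plin5) in place of 1. The block changed no other call of a member. Between the cell lines, where the numbers do not pair the libraries, it ended the call of 3 other droplet proteins without and 1 with pioglitazone, and added 2 triglyceride genes without it. With each library left out, the number of members called was 4, 4, 3 to 4, 0 and 1 in the comparisons in the order of the text, also with a fold change above 2.

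Directions reversed only for differences near 0 that passed no test. In EV cells with versus without pioglitazone, Plin2 was 0.0038 under library size alone, 1.9e-04 with at least 10 counts in every library and 0.0018 with all 12 libraries in one fit. With libraries left out it was -0.033 to 0.052, Plin5 was -0.28 to 0.062 and Cideb -0.22 to 0.12, and the interaction of Cideb was -0.17 to 0.49. The interaction of Plin1, which was not called, was 0.80 to 2.87. The cause was not tested. Depth limits what can be said of Cidea, of Cideb, and of Plin1 and Cidec in EV cells, where 3 counts per library is the floor.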
